A study of Rattus norvegicus with 6 samples.

Results

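Oxidative stress defense was followed through 10 genes in cultured rat oligodendrocyte progenitors (OPCs), primary cells that still divide and can mature into the oligodendrocytes that wrap axons in myelin. The genes were Nfe2l2, Keap1, Hmox1, Nqo1, Gclc, Gclm, Txnrd1, Srxn1, Cat and Sod2, chosen by name, and each was measured by 1 probe set with values, so that all 10 were among the 13949 genes tested. In 3 samples the OPCs had been given fibrinogen, a blood protein that forms clots and reaches the brain when its vessels are damaged, for 12 h, and 3 control samples were left unstimulated. All cells came from rat pups in the first days after birth and had recovered in a proliferation medium holding N2, B27, NT3 and PDGF. The sources used here do not give the fibrinogen dose, the rat strain or whether replicates were separate cultures, so the spread behind each p-value is that between these 3 samples a group and may be technical. Values were log2 levels from Affymetrix arrays.

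Cells meet oxidants by enzymes that remove superoxide and peroxides and by programs that raise the supply of those enzymes. NRF2, the protein of Nfe2l2, is a transcription factor that is held low by KEAP1, which hands it to a ubiquitin ligase; oxidants and electrophiles modify KEAP1, NRF2 accumulates, pairs with small MAF proteins and binds antioxidant response elements near genes such as Nqo1, Hmox1, Gclc, Gclm, Txnrd1 and Srxn1. Much of this control acts on the NRF2 protein, which arrays do not measure. OPCs are known as sensitive to oxidative damage, with rich iron stores and limited glutathione.

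Promoter sequence of RefSeq (GRCr8) was held for 9 of the 10 genes, with 2 start sites for Txnrd1, and was searched for response element letters in the 250 bases before each start. The letters TGACNNNGC, the core of the antioxidant response element, were searched on both strands and occurred in 3 of the 10 windows and in 10.1% of all 33469 windows. The AP-1 letters TGANTCA, which can overlap the first motif where TGAC is followed by TCAGC, occurred in 1 of the 10 windows and in 6.34% of all. A match is a description of letters, not a site of binding, and known elements of several of these genes lie farther out than this window. The 4 stretches with a match are shown first, with the matched letters in capitals, at chr2:213031938-213031996 (plus strand) for Gclm, chr7:22755949-22756007 (minus strand) for Txnrd1, chr1:50050170-50050228 (minus strand) for Sod2 and chr3:161064725-161064781 (plus strand) for Srxn1. All are printed in the direction of the gene, so that a match on the other strand reads as its reverse complement (Gclm, Txnrd1 and Sod2). The window of the other Txnrd1 start site held neither motif.
Gclm: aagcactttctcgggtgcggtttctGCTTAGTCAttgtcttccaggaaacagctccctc
Txnrd1: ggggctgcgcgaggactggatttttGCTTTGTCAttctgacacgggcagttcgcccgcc
Sod2: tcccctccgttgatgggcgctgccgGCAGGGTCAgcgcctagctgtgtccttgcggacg
Srxn1: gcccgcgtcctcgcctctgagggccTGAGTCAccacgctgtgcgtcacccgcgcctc
Nfe2l2 and Nqo1 are shown whole because they had the largest differences among the genes with a promoter entry. They lie at chr3:81029000-81029249 and chr19:52220268-52220517, both on the minus strand, and held neither motif.
Nfe2l2: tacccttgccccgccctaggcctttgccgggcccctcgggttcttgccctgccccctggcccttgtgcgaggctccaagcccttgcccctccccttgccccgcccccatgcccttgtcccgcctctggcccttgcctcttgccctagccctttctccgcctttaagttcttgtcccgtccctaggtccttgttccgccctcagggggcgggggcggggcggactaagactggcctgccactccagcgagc
Nqo1: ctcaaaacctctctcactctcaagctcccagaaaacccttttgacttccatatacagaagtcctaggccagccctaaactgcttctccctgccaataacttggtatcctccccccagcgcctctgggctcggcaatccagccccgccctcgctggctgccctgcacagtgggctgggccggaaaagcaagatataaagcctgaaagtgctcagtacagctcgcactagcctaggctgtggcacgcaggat

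None of the 10 genes passed the test in either direction after 12 h of fibrinogen (limma, Benjamini-Hochberg adjusted p under 0.05 over all 13949 genes), against 3.1% of all genes. At an unadjusted p under 0.05 in limma, 3 of the 10 were higher in fibrinogen OPCs (Nfe2l2, Hmox1 and Nqo1) and 0 were lower, against 15.6% of all genes (8.12% higher and 7.46% lower). The fibrinogen and control arrays did not overlap for 5 of the 10 genes, with fibrinogen above for those 3 and below for Cat and Sod2, against 21.3% of all genes (10.7% above and 10.6% below). The median log2 change was 0.02 over the 10 genes and -0.0033 over all genes, while the median size of the change, sign aside, was 0.153 and 0.0867. All 10 had a mean log2 level above 5.51, the 95th percentile of 956 olfactory and vomeronasal receptor genes that served as a measure of background. The 95% intervals of the 10 fold changes together ran from 0.796 to 1.40, each for 1 gene and not adjusted for their number.

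**Figure D1:**
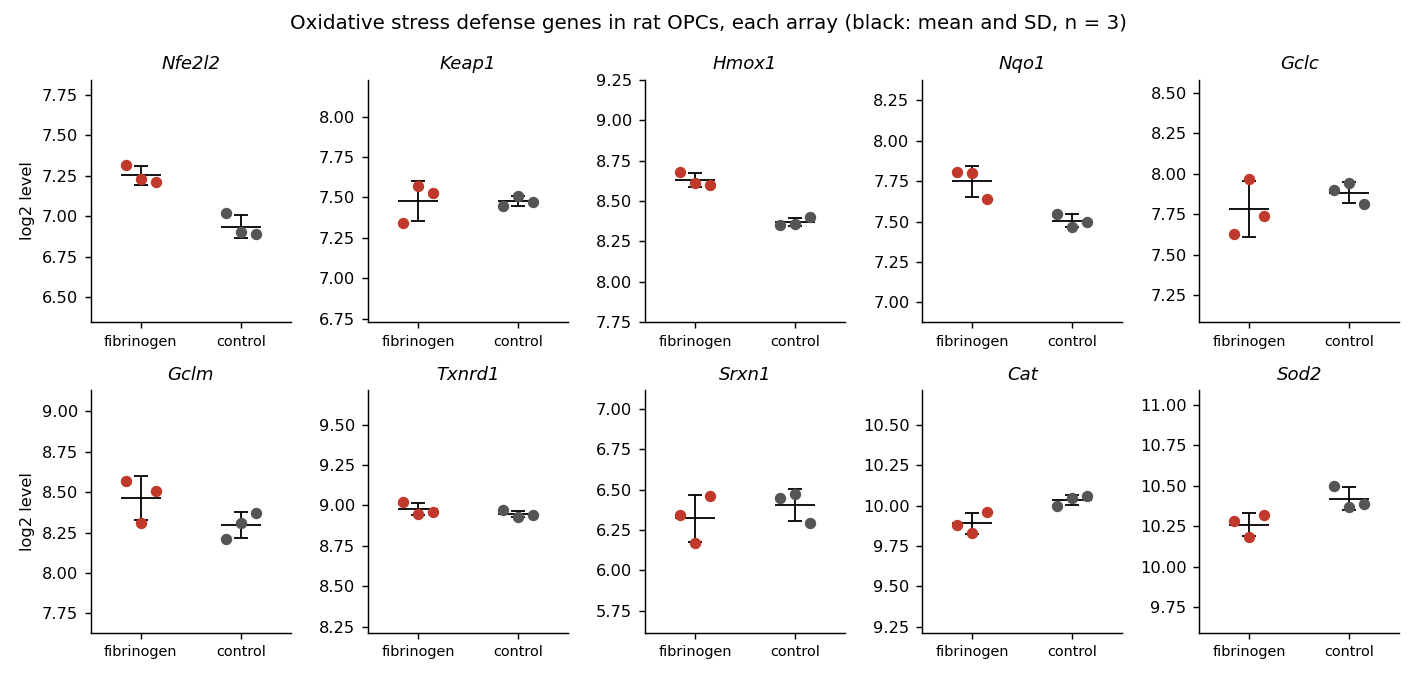
Log2 level (vertical axes, all of the same span) of the 10 genes on each of the 3 fibrinogen arrays (red) and 3 control arrays (grey), with the mean and SD in black. The fibrinogen points of Nfe2l2, Hmox1 and Nqo1 all lie above the control points, those of Cat and Sod2 all lie below, and the other 5 genes overlap.

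The gene of the regulator itself had the lowest p of the 10. Nfe2l2 had log2 levels of 7.32, 7.23 and 7.21 in fibrinogen OPCs and 7.02, 6.90 and 6.89 in control OPCs. Every fibrinogen array was above every control array, and the gap of 0.19 between the groups was wider than the range within either (0.11 and 0.13). The log2 change was 0.32 ± 0.07 (SE), a 1.25-fold difference with a 95% interval of 1.11 to 1.40, which did not pass (adjusted p = 0.0591, limma), and its p ranked 479 among the 13949 genes. Keap1, the inhibitor that senses oxidants, had levels of 7.34, 7.57 and 7.53 in fibrinogen OPCs and 7.45, 7.51 and 7.47 in control OPCs. Fibrinogen 1 was the lowest of the 6 and fibrinogen 2 the highest, so the control range lay wholly inside the fibrinogen range. Its fold of 1.00 had a 95% interval of 0.883 to 1.14 (adjusted p = 0.990, limma).

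Hmox1 and Nqo1, classical targets of NRF2, were both above control on every fibrinogen array without passing the test. Hmox1, the enzyme that breaks heme into iron, carbon monoxide and biliverdin, had levels of 8.68, 8.61 and 8.60 in fibrinogen OPCs and 8.35, 8.36 and 8.40 in control OPCs. The arrays of each group lay close together, with SDs of 0.044 and 0.026 (fibrinogen and control, n = 3 each), and the log2 change was 0.26 ± 0.07 (SE, adjusted p = 0.0815, limma). Nqo1, a quinone reductase that spares cells the one-electron route to superoxide, had levels of 7.81, 7.80 and 7.64 in fibrinogen OPCs and 7.55, 7.47 and 7.50 in control OPCs. Fibrinogen 3 stood nearest to the controls, 0.09 above the highest of them. The log2 change was 0.24 ± 0.08 (SE), a 1.18-fold difference with a 95% interval of 1.05 to 1.33 (adjusted p = 0.147, limma).

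**Figure D2:**
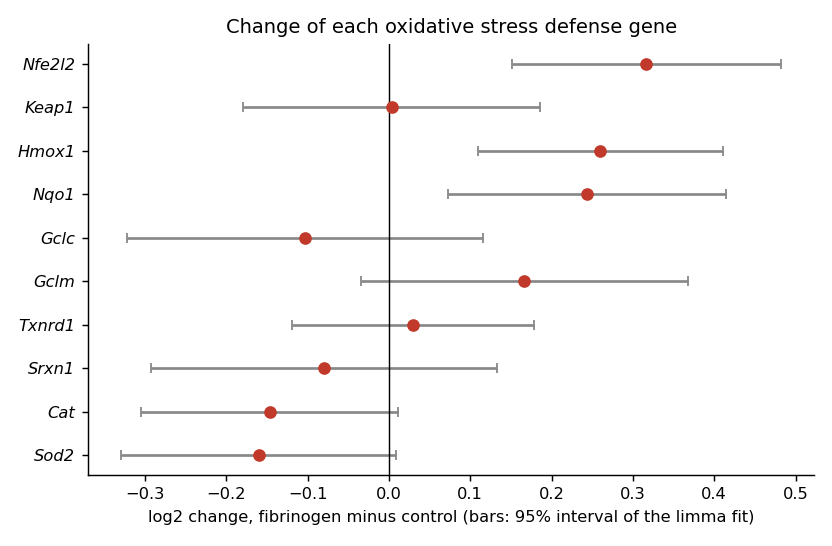
Log2 change, fibrinogen minus control, of the 10 genes (horizontal axis), with the 95% interval of the limma fit as bars. The intervals of Nfe2l2, Hmox1 and Nqo1 lie above 0 before adjustment for the number of genes, and the other 7 include 0.

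Glutathione synthesis begins with glutamate-cysteine ligase, and the genes of its subunits had changes of opposite sign, neither past the test. Gclm, the modifier subunit that makes the enzyme more efficient, had levels of 8.57, 8.31 and 8.51 in fibrinogen OPCs and 8.21, 8.31 and 8.37 in control OPCs. Fibrinogen 2 equalled control 2, while fibrinogen 1 and 3 were above all controls. The log2 change was 0.17 ± 0.09 (SE, adjusted p = 0.425, limma). Gclc, the catalytic subunit, had levels of 7.63, 7.97 and 7.74 in fibrinogen OPCs and 7.90, 7.94 and 7.81 in control OPCs. Here fibrinogen 2 was the highest of the 6 arrays and the other fibrinogen arrays the lowest, which gave the widest spread of any of the 10 genes in either group (SD 0.173, n = 3). The log2 change was -0.10 ± 0.10 (SE, adjusted p = 0.688, limma). Without fibrinogen 2 the changes of Gclm and Gclc were 0.24 and -0.20, and without fibrinogen 1 they were 0.11 and -0.03, and none of these passed (adjusted p = 0.136 and 0.211 without fibrinogen 2, 0.619 and 0.923 without fibrinogen 1, limma). Over all genes fibrinogen 2 also deviated most from its group mean (SD 0.146, against 0.086 to 0.114 for the other arrays).

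The genes of thioredoxin and peroxiredoxin repair had levels that overlapped between the groups. Txnrd1, the cytosolic selenoenzyme that recharges thioredoxin, had levels of 9.02, 8.95 and 8.96 in fibrinogen OPCs and 8.97, 8.93 and 8.94 in control OPCs. All 6 arrays lay within 0.09, and the 95% interval of its fold, 0.921 to 1.13, was the narrowest of the 10 on the log scale. Srxn1, the sulfiredoxin that restores over-oxidised peroxiredoxins, had levels of 6.34, 6.17 and 6.46 in fibrinogen OPCs and 6.45, 6.47 and 6.29 in control OPCs. The groups overlapped almost completely, with fibrinogen 2 the lowest array, and the log2 change was -0.08 ± 0.09 (SE, adjusted p = 0.762, limma).

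Sod2 and Cat, which act on superoxide and hydrogen peroxide, were lower on every fibrinogen array, by small amounts that did not pass. Sod2, the mitochondrial manganese superoxide dismutase, had levels of 10.28, 10.18 and 10.32 in fibrinogen OPCs and 10.50, 10.37 and 10.39 in control OPCs. The nearest arrays of the groups, fibrinogen 3 and control 2, were 0.05 apart. The log2 change was -0.16 ± 0.07 (SE), a fold of 0.895 with a 95% interval of 0.796 to 1.01 (adjusted p = 0.352, limma). Cat, the peroxisomal catalase, had levels of 9.88, 9.83 and 9.96 in fibrinogen OPCs and 10, 10.05 and 10.06 in control OPCs. Here too the groups did not overlap, with 0.04 between fibrinogen 3 and control 1, and the log2 change was -0.15 ± 0.07 (SE, adjusted p = 0.360, limma).

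Whether Nfe2l2 and Hmox1 counted as higher turned on the setting of the test. Both passed, and no other of the 10 did, when dim genes were left out below the 30th percentile of mean levels (adjusted p = 0.0320 for Nfe2l2 and 0.0432 for Hmox1), below the receptor percentile (0.0327 and 0.0442), or with weights that give deviating arrays less influence (0.0328 and 0.0486, limma in each case). Those settings called 6.1%, 5.98% and 4.72% of the genes they tested. With a variance prior that follows the mean level, Nfe2l2 alone passed (adjusted p = 0.0496, limma), with 4.01% of all genes called (4.04% with the robust form of that prior). In each of the 6 fits that left out 1 array none of the 10 passed, and the adjusted p of Nfe2l2 ran from 0.0697 to 0.224, that of Hmox1 from 0.0764 to 0.269 and that of Nqo1 from 0.120 to 0.397 (limma). The log2 change itself moved little in those fits, between 0.28 and 0.36 for Nfe2l2, 0.24 and 0.28 for Hmox1 and 0.21 and 0.30 for Nqo1.

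**Figure D3:**
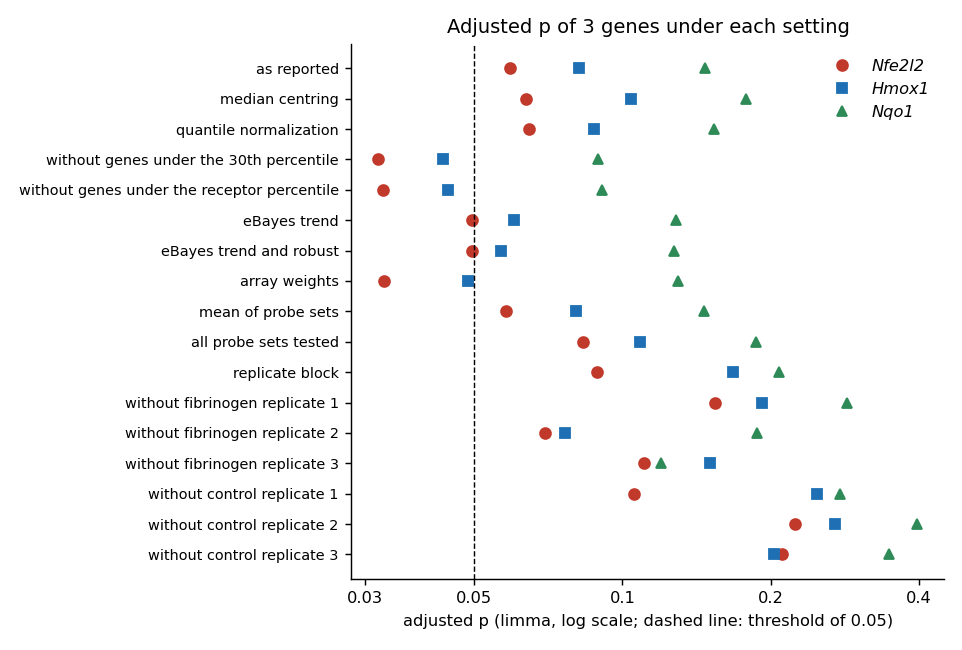
Adjusted p (horizontal axis, log scale) of Nfe2l2, Hmox1 and Nqo1, the 3 of the 10 genes with an unadjusted p under 0.05, in the fit as reported and under each alternative (rows), with the threshold of 0.05 dashed. Nfe2l2 and Hmox1 cross it without dim genes and with array weights, Nfe2l2 lies just under it with the mean-dependent prior, and Nqo1 lies above it throughout.

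The genes whose levels followed Nfe2l2 most closely over the 6 arrays were Csdc2, Camk1g and Desi1, each with a Pearson r of 0.99 (n = 6 arrays, which share the difference between the groups, as a description). Csdc2, an RNA-binding cold shock domain gene, and Camk1g, a calmodulin-dependent kinase gene, rose by 0.72 and 0.46 on the log2 scale (adjusted p = 0.00719 and 0.0244, limma), whereas Desi1 had a difference of 0.15 that did not pass (adjusted p = 0.315, limma). The call for Camk1g ended without fibrinogen 1 or 2 or control 2 or 3 (adjusted p = 0.0852, 0.0501, 0.115 and 0.112, limma).

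Around the 10 genes, 156 other measured genes of oxidant metabolism were read from the same fit in 6 lists. Of these 7 rose, 1 fell and 148 did not pass, against 1.81% of all genes higher and 1.29% lower, and their median log2 change was 0.0033. In the glutathione list 4 of 37 genes rose and 0 fell, with a median of 0.04, namely Gstm1, Gsta4, Gstm7 and Mgst2. The lists were drawn up with earlier results of these data known, and their counts are descriptions.

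**Figure D4:**
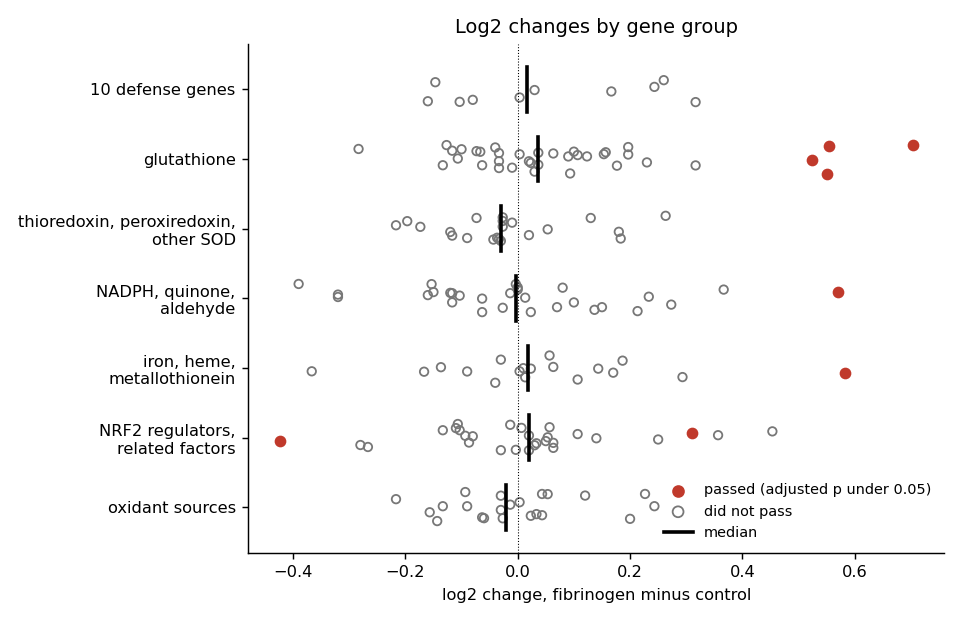
Log2 change, fibrinogen minus control (horizontal axis), of the 10 defense genes and of the 6 lists of related genes (rows), 1 point per gene, filled where it passed (limma, adjusted p under 0.05), with the median as a black bar. The medians lie between -0.03 and 0.04, and 4 of the 8 filled points are glutathione genes.

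Gstm1, a mu class glutathione transferase that joins glutathione to electrophiles, had log2 levels of 9.89, 10.15 and 9.91 in fibrinogen OPCs and 9.23, 9.33 and 9.28 in control OPCs. The groups were well apart, with fibrinogen 2 the highest array, and Gstm1 rose by 0.70 ± 0.09 (SE), 1.63-fold (adjusted p = 0.00426, limma). Gsta4, an alpha class enzyme with a preference for the lipid peroxidation product hydroxynonenal, had levels of 8.36, 8.21 and 8.23 in fibrinogen OPCs and 7.63, 7.68 and 7.84 in control OPCs. It rose by 0.55 ± 0.08 (SE, adjusted p = 0.0109, limma), and a second probe set gave the same change of 0.55. Gstm7, another mu class gene, rose by 0.52 ± 0.08, and Mgst2, a microsomal transferase, rose by 0.55 ± 0.09 (SE, adjusted p = 0.0122 and 0.0165, limma). Mgst2 had levels of 6.21, 6.26 and 6.04 in fibrinogen OPCs and 5.62, 5.49 and 5.74 in control OPCs, where control 2 lay just under the receptor percentile. Near-identical members of the transferase families can share probes, so the split between them is uncertain. Gstm1 kept its call without each array, whereas the adjusted p was 0.0544 and 0.0626 for Gsta4 without control 1 and 2, 0.0517 and 0.0604 for Gstm7 without control 1 and 3, and 0.0630, 0.0687 and 0.0760 for Mgst2 without fibrinogen 1, control 1 and control 2 (limma). The glutathione genes that rose therefore numbered 1, 2 and 3 without control 1, 2 and 3. They numbered 3 without fibrinogen 1, and 4 without fibrinogen 2 or 3. In the fit without fibrinogen 2 and in that with array weights, 1 glutathione gene fell.

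The supply side of glutathione gave smaller differences. Gss, which completes the synthesis of glutathione, had a log2 change of 0.23 ± 0.10 (SE, adjusted p = 0.320, limma) with overlapping arrays. Slc7a11, the cystine importer and an NRF2 target, had levels of 8.90, 8.74 and 8.84 in fibrinogen OPCs and 8.83, 8.93 and 8.82 in control OPCs, a difference of -0.03 that did not pass. Gsr, which reduces oxidised glutathione, and Gpx4, which removes lipid peroxides, had changes of -0.11 and -0.13 (adjusted p = 0.571 and 0.438, limma). None of the 21 further thioredoxin, peroxiredoxin and superoxide dismutase genes passed in limma, and the list median was -0.03. At an unadjusted p under 0.05 in limma, 1 was higher (Msra) and 1 lower (Sesn1), against 8.12% of all genes higher and 7.46% lower. Among the 21 genes were Prdx1, Txn1 and Sod1, with changes of -0.01, -0.03 and -0.03, and the largest differences were those of Sod3, the extracellular dismutase, at 0.26, and Sesn1, a stress-responsive sestrin, at -0.22.

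The list for NADPH, quinones and aldehydes, which also holds epoxide hydrolases and other genes, had 29 measured genes. Of these 1 rose and 0 fell, against 1.81% of all genes higher and 1.29% lower. Ephx1, the microsomal epoxide hydrolase, had log2 levels of 7.25, 7.55 and 7.09 in fibrinogen OPCs and 6.80, 6.78 and 6.60 in control OPCs, and rose by 0.57 ± 0.12 (SE, adjusted p = 0.0421, limma). Its fibrinogen arrays were spread widely, and the call ended with quantile normalization (adjusted p = 0.0522), with all probe sets tested (0.0662) and in each fit without 1 array but fibrinogen 3: 0.0998 and 0.0521 without fibrinogen 1 and 2, and 0.112, 0.125 and 0.157 without control 1, 2 and 3 (limma). Of 18 iron, heme and metallothionein genes 1 rose and 0 fell. That was Mt2A, a metallothionein that binds zinc and copper and scavenges radicals, with levels of 11.34, 11.41 and 11.39 in fibrinogen OPCs and 10.70, 10.75 and 10.94 in control OPCs. It rose by 0.58 ± 0.08 (SE, adjusted p = 0.00752, limma), kept its call without each array, and had a second probe set with a change of 0.68. The number of this list that rose was 2 with dim genes left out below either percentile and with array weights. The number was also 2 with a variance prior that follows the mean level, robust or not. Fth1, the heavy chain of ferritin and an NRF2 target, had a change of 0.01 (adjusted p = 0.957, limma).

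**Figure D5:**
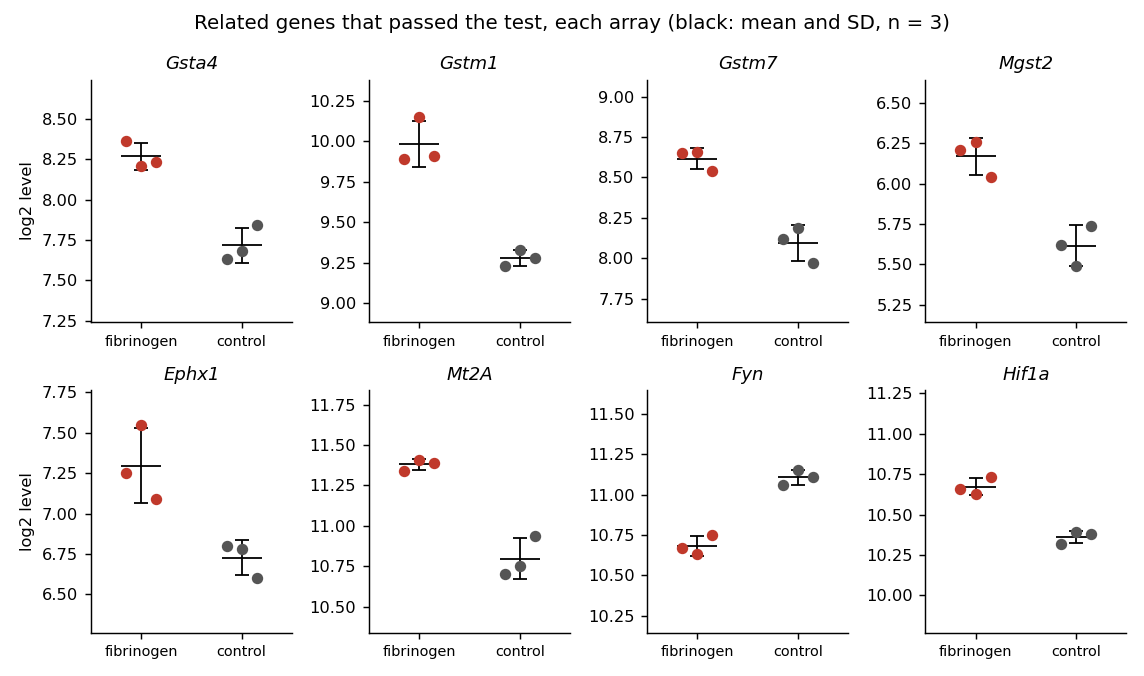
Log2 level (vertical axes, all of the same span) on each of the 3 fibrinogen arrays (red) and 3 control arrays (grey), with mean and SD in black, of the 8 related genes that passed. The groups do not overlap in any panel; Fyn is lower in fibrinogen OPCs and the other 7 are higher.

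Among 29 regulators of NRF2 and related factors, 1 rose and 1 fell, against 1.81% of all genes higher and 1.29% lower. Hif1a, the hypoxia-inducible factor, had log2 levels of 10.66, 10.63 and 10.73 in fibrinogen OPCs and 10.32, 10.39 and 10.38 in control OPCs, and rose by 0.31 ± 0.07 (SE, adjusted p = 0.0490, limma). Its call ended after median centring (adjusted p = 0.0580), with all probe sets tested (0.0704), without fibrinogen 1 or 3 (0.112 and 0.141) and without control 1, 2 or 3 (0.184, 0.164 and 0.155, limma). Fyn, a Src family kinase linked to nuclear export of NRF2 and, in this lineage, to myelination, had levels of 10.67, 10.63 and 10.75 in fibrinogen OPCs and 11.06, 11.15 and 11.11 in control OPCs. Fyn fell by 0.42 ± 0.07 on the log2 scale (SE, adjusted p = 0.0161, limma), to 0.746 of control, and its call ended without fibrinogen 1 (adjusted p = 0.0562) and without control 1, 2 and 3 (0.0544, 0.0900 and 0.0810). The other fixed regulators stayed within small differences that did not pass: Bach1, a repressor that competes with NRF2, had -0.11, the ligase scaffold Cul3 -0.10, the small MAF partner Mafg -0.01 and the KEAP1-binding Sqstm1 0.0067.

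None of 22 genes of oxidant sources passed in limma, and their median log2 change was -0.02. At an unadjusted p under 0.05 in limma, 2 were higher (Cyp2e1 and Duox1) and 1 lower (Ero1a), against 15.6% of all genes (8.12% higher and 7.46% lower). Cyp1b1 and Cyp2e1 had the largest differences, 0.24 ± 0.20 and 0.23 ± 0.09 (SE, adjusted p = 0.645 and 0.265, limma). Cyp1b1 ranged from 5.25 to 6.15 over the control arrays alone, its difference was 0.045 without control 1 and 0.50 without control 3, and Cyp2e1 had a mean level of 3.55, below the receptor percentile. Cybb, the catalytic subunit of the NADPH oxidase of phagocytes, had levels of 4.48, 4.57 and 4.41 in fibrinogen OPCs and 4.70, 4.36 and 4.58 in control OPCs, all below that percentile. Only 11 of the 22 genes lay above it, so differences in the rest could be missed.

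Marker genes moved beside these changes, and in such mixed RNA fewer cells of a type and less RNA per cell cannot be told apart. Of 8 measured OPC markers, all above the receptor percentile, 4 fell and 1 rose, against 1.29% of all genes lower and 1.81% higher. The 1 that rose was Cnksr3, by 0.67 on the log2 scale (adjusted p = 0.00252, limma). Among those that fell was Pdgfra, with levels of 11.09, 10.98 and 11.23 in fibrinogen OPCs and 11.54, 11.51 and 11.44 in control OPCs. The OPC markers that fell numbered 2 with all probe sets tested, 2, 2 and 3 without fibrinogen 1, 2 and 3 and 2, 1 and 1 without control 1, 2 and 3, and Pdgfra (adjusted p = 0.0415, limma) kept its call only in the fit without fibrinogen 3 (adjusted p of 0.0628 to 0.159 in the other fits that left out 1 array). Of 8 measured astrocyte markers 2 rose and 0 fell, Gfap and Slc1a2. The number that rose was 3 without fibrinogen 2, with array weights, and with dim genes left out below either percentile. The summed log2 level of the astrocyte list ran from 63.5 to 64.6 in fibrinogen OPCs and from 61.2 to 62.0 in control OPCs. The groups did not overlap in that sum, nor in the sums of 4 further lists. These ran from 77.2 to 78.2 in fibrinogen OPCs and from 78.9 to 79.4 in control OPCs for OPC markers, and from 63.0 to 63.6 in fibrinogen OPCs and from 62.0 to 62.5 in control OPCs for oligodendrocyte markers. They ran from 25.33 to 25.57 in fibrinogen OPCs and from 25.08 to 25.23 in control OPCs for endothelial markers, and from 33.66 to 34.29 in fibrinogen OPCs and from 34.33 to 34.47 in control OPCs for fibroblast and pericyte markers. Only 2 of the 5 endothelial and 3 of the 6 fibroblast or pericyte genes lay above the receptor percentile, so these sums rest partly on background. The oligodendrocyte sum joins changes from -0.48 (Cnp, which fell) to 0.91 (Ermn, which rose), with a median of 0.08. Without Ermn the groups overlap in that sum. For single genes, the groups did not overlap in 21.3% of all genes. The part of any of these cell types in the changes of the related genes was not tested. Of the 8 astrocyte markers 7 had a positive log2 change, among them Aqp4 at 0.01, and Gja1 had -0.04. At an unadjusted p under 0.05 in limma, 5 were higher (Gfap, Slc1a2, Slc1a3, Aldoc and Fgfr3), against 8.12% of all genes higher and 7.46% lower. None of 15 microglia markers passed in limma (1 lower, Ly86, at an unadjusted p under 0.05), 6 of them lay above the receptor percentile, and their summed level was 77.7 to 79.3 in fibrinogen OPCs and 78.9 to 80.0 in control OPCs. Among the other marker lists, 1 of 8 oligodendrocyte genes rose and 1 fell, 1 of 10 neuron genes fell, and none of 5 endothelial and 6 fibroblast or pericyte genes passed in limma (0 and 1 at an unadjusted p under 0.05). The neuron gene was Gad2, with a mean level of 5.06, below the receptor percentile. No neuron gene fell without control 3 or with dim genes left out below either percentile.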

How the data were processed

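RNA of 6 samples was hybridised to Affymetrix arrays after amplification with NuGEN Ovation Pico WTA V2 and labelling with biotin, per the labels' protocols. The deposited table holds log2 levels, 1 per probe set and array, taken to have been normalized with RMA, which the submitters' processing notes name beside limma without settings. The log2 scale was inferred from the values, and centring and build were not given in the sources used here. RMA can compress differences, most of all at low levels, and no scanner files were used here. Of 26312 probe sets, 1206 were blank on every array; of the 25106 with values, 14700 had 1 gene symbol in the platform's annotation, 275 several and 10131 none. Only the first kind was named, and the probe set with the highest mean stood for each of 480 genes with several, which gave 13949 genes. Checked by Entrez ID against the RefSeq table, 15064 probe sets of that kind (with or without values) matched and 0 symbols changed.

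Each gene was tested as fibrinogen minus control with limma 3.58.1 in R 4.3.3 (lmFit, eBayes, two-sided, no covariates), with Benjamini-Hochberg adjustment over all genes and a threshold of 0.05. SEs and intervals are those of that fit, and each SD is that of 3 arrays. With 3 samples a group, the smallest p that exact permutation allows is 0.1, so it was not used. The fit was tested on simulated data. Median log2 levels of the arrays ran from 6.85 to 6.89, and no array copied another, with the same value in 3.63% of genes or fewer for any pair. The number of arrays limits the precision. Dim genes stayed in the test as reported.

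The 10 genes, the lists and the rules were chosen with earlier results of these data known. Named were the 10 genes, in each list the largest changes that passed, up to 4 genes (or the 2 largest differences where none did), the fixed genes Slc7a11, Gss, Gsr, Gpx4, Sod1, Prdx1, Txn1, Bach1, Cul3, Mafg, Sqstm1, Fth1 and Cybb, and the 3 genes most like Nfe2l2, which was also the gene with the lowest p. One further fixed gene is not reported here. Msra, Duox1, Ero1a, Ly86, Slc1a2, Slc1a3, Aldoc, Fgfr3, Aqp4, Gja1 and Cnksr3 were named after their values were seen. The same holds for Ermn, Cnp, Gad2, Nqo2, Akr1b10, Aldh2, Cyb5r1, Idh1, Tkt and Ugdh. Alternatives were other scaling, filters, variance priors, array weights, probe set rules, a replicate block and leaving out each array.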

Additional observations from a re-analysis of the deposited data

How the results depend on the processing

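The count of the 10 defense genes past the threshold was 0 as reported, with median centring, quantile normalization, the mean of probe sets, all probe sets tested or a replicate block, and without any 1 array (0 to 0). It was 2 without genes under the 30th percentile, 2 without genes under the receptor percentile, 2 with array weights, and 1 with the mean-dependent variance prior, robust or not. More genes past the threshold in all, or fewer genes tested, went with each of these. Median centring (442), the mean of probe sets (435) and the fit without fibrinogen 2 (436) also had more genes past it than the 432 reported. None of the 10 passed in those fits. Over all genes 432 passed (252 higher, 180 lower), against 659 with array weights, 287 with all probe sets tested and 151 to 436 without 1 array. Median centring gave 232 higher and 210 lower. Of the 156 related genes 8 passed, against 6 to 11 in the fits that kept all arrays and 2 to 9 without 1 array: 4 and 9 without fibrinogen 1 and 2, and 2, 3 and 4 without control 1, 2 and 3.

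Changes near 0 turned sign, none past the threshold. Keap1 had -0.01 with median centring, -0.00083 with quantile normalization, -0.014 with array weights and -0.042 to 0.073 without 1 array. Prdx1 had 0.0031 with quantile normalization, 0.018 with array weights and -0.038 to 0.027 without 1 array, and Sqstm1 had -0.0067 with median centring and -0.012 to 0.023 without 1 array. Without 1 array Slc7a11 ran from -0.07 to 0.01, Txn1 from -0.05 to 0.01, Fth1 from -0.0033 to 0.037 and Cybb from -0.15 to 0.017. The cause was not tested.

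Same-numbered arrays shared little: their deviations from the group means correlated at 0.0278, 0.0217 and 0.0109, although 6 of 6 arrays correlated best with their own number, as a hint from the data only. These 6 matches are not independent, because both groups were read from the same correlations. The replicate block gave 315 genes past the threshold and 7 of the 156 related genes, and ended the calls for Hif1a and Pdgfra (adjusted p = 0.104 and 0.0770, limma); 2 of 8 OPC markers fell with it, against 4 as reported.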
